A study of Mus musculus with 9 samples.

Results

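Mouse embryonic fibroblasts (MEFs) that had been given p21 with a lentivirus were compared with MEFs given the empty vector, across every gene counted. The comparison took 6 of the 9 libraries of the series, chosen by their titles: 3 of p21 overexpression and 3 of the empty vector control. The other 3 libraries came from cells given p16 and were not compared. They entered the filter on low counts, the scaling and the estimate of the spread between replicates. All 6 were labelled C57BL/6, all were harvested at day 10, and all, the empty vector cells included, carry the cell status senescent in their labels. The labels give neither the promoter that drives the transgene nor the species of its sequence, and they do not tell if each replicate was a culture of its own. P-values therefore measure the spread between these libraries, which may be technical in part.

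Between 16629 and 16950 genes had at least 1 count in each of the 6 libraries, whose totals ran from 56864342 counts (p21 replicate 3) to 76054820 counts (control replicate 1). No replicate repeated another: a chi-square over genes gave 13.81 to 101.2 per degree of freedom for pairs within a group. The third replicates of both groups stood apart in RNA from the sex chromosomes. In counts per 1000000 after scaling (CPM), Xist was at 397 in control replicate 3, at 158 in p21 replicate 3 and below 0.2 elsewhere. The Y-linked gene Ddx3y was at 1.1 and 10.8 CPM in the third replicates and at 50.1 to 67.6 CPM elsewhere. With replicates 1 and 2 alone, 2669 genes were higher and 2812 lower in p21 cells, against 2808 and 3012 with all 6. The cells carried the RNA of fibroblasts in both groups: the collagen gene Col1a1 stood at 10880 to 17260 CPM in control and 13930 to 15080 CPM in p21 libraries, and Vim, which encodes vimentin, at 5023 to 6231 CPM over the 6.

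p21 is a cyclin-dependent kinase (CDK) inhibitor. It binds complexes of a cyclin with its kinase, and without that kinase activity the retinoblastoma (RB) family of pocket proteins stays unphosphorylated and keeps E2F transcription factors from activating the genes of DNA replication. The pocket proteins also join E2F4, DP proteins and the MuvB core in the DREAM complex, which silences genes of mitosis through an element called CHR and genes of replication through E2F sites. In fibroblasts, prolonged p21 expression is known for a lasting arrest with enlarged lysosomes and an altered set of secreted proteins.

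Across the 14572 genes that passed the filter on low counts, 5820 differed between p21 and control cells, 39.9% of those tested, at an adjusted p under 0.05 (edgeR quasi-likelihood test with Benjamini-Hochberg adjustment). Of these, 2808 were higher (19.3%) and 3012 lower (20.7%). A gene past this threshold is termed called below. Most changes were small, with a median of 1.35-fold for genes called higher and 1.31-fold for genes called lower. At least 2-fold changes were seen for 497 genes called higher (3.41%) and 282 called lower (1.94%), and at least 4-fold changes for 109 and 10 genes. All p21 libraries lay above all control libraries for 24% of the genes tested and below them for 25.7%. Genes called higher held 22.8% of all counts in control cells and 30.6% in p21 cells, while genes called lower held 27.0% and 21.4%. The share called rose with the level of the gene, from 20.1% of the 3643 genes with the lowest mean levels to 49.6% of the 3642 with the highest, which bears on any list of strongly expressed genes. In 20 of 30 cases where 1 to 4 members of a list were called in one direction, leaving out 1 library moved that count by more than 1.5 times. Such small counts are given below with that limit, and larger counts that moved so are named.

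Cdkn1a, which encodes p21 (chromosome 17, 29090976 to 29100727, plus strand, GRCm38), stood at 399, 383 and 317 CPM in the control libraries and at 1218, 1087 and 1085 CPM in the p21 libraries. The groups did not overlap, and the gene was 3.09-fold higher (log2 fold change 1.63 ± 0.089 SE, adjusted p = 8.05e-06). Counts of vector and endogenous transcripts cannot be told apart. Cdkn2a, the locus of p16 and p19Arf, stood at 60.8, 68.8 and 59.6 CPM in control and 112.9, 94.3 and 79.6 CPM in p21 libraries, 1.52-fold higher (adjusted p = 0.0027). Levels of 14 genes that stand for the groups below are plotted for each library.

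**Figure D1:**
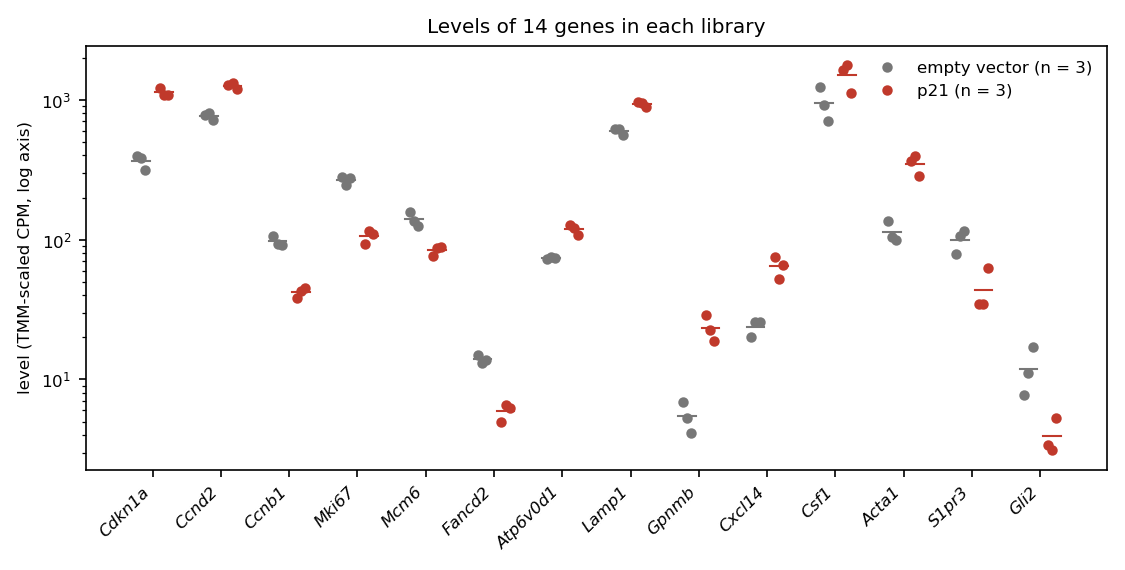
Level of 14 genes in each of the 6 libraries, in TMM-scaled CPM on a log axis. Grey points are the 3 empty vector libraries, red points the 3 p21 libraries and short lines the group means. Cdkn1a lies at 317 to 399 CPM in the control libraries and at 1085 to 1218 CPM in the p21 libraries, and of the 14 genes only Csf1 has libraries that overlap between the groups.

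Regulators of the cell cycle were called in both directions. Of 25 cyclins, CDKs and their direct regulators tested, 5 were higher and 15 lower (20% and 60%, against 19.3% and 20.7% of all genes). The median log2 fold change was -0.50, against -0.01 over all genes tested. The 5 called higher were the 3 D-type cyclin genes and Ccng1 and Ccng2, whose products are known from growth arrest and the p53 response. Ccnd2 stood at 783, 809 and 717 CPM in control and 1273, 1328 and 1191 CPM in p21 cells, 1.64-fold higher (adjusted p = 4.92e-05). Ccng2 was 1.55-fold higher (adjusted p = 0.000206). Ccnd1 was 1.48-fold higher (adjusted p = 0.0308) with libraries that overlapped, and it lost its call without control replicate 2 or 3 or p21 replicate 1 or 2 (adjusted p up to 0.0995).

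The cyclin genes Ccna2, Ccnb1 and Ccnb2 fell. Ccnb1, the cyclin of mitotic entry, stood at 106.9, 92.8 and 92.0 CPM in control and 38, 42.8 and 44.9 CPM in p21 cells, 2.32-fold lower (adjusted p = 1.14e-05). Ccna2 was 2.29-fold lower and the phosphatase gene Cdc25b, which activates CDKs, 2.45-fold lower (adjusted p = 1.1e-05 and 6.52e-06). All p21 libraries lay below all control libraries for these 3 genes. The kinase genes themselves moved by less: Cdk1 was 1.92-fold, Cdk2 1.52-fold and Cdk4 1.17-fold lower. Cdk7, the kinase that activates the others, did not pass (60.9 ± 2.7 against 56.9 ± 1.7 CPM, SD, n = 3, adjusted p = 0.145), nor did Ccne1, the cyclin of S-phase entry (54.2 ± 5.6 against 50.4 ± 9.9 CPM, adjusted p = 0.543). Ccnd1, Ccnd2, Ccng1, Ccng2 and the CDK genes were named after their values were seen.

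Among 20 genes of the RB, E2F and DREAM families, 2 were higher and 11 lower, with a median of -0.26. The shares were 10% and 55%, against 19.3% and 20.7% of all genes. The largest falls were in members that are themselves cell cycle targets. Mybl2, the activator that replaces the pocket proteins on MuvB in dividing cells, was 2.27-fold lower (mean 17.8 ± 0.9 against 40.4 ± 7.2 CPM, adjusted p = 8.47e-05), and Foxm1, its partner at mitotic genes, 2.06-fold lower (adjusted p = 1.94e-05). Rbl1, which encodes the pocket protein that rises in S phase, was 1.76-fold lower (adjusted p = 0.000181). Rbl2, the pocket protein of resting cells, did not pass (29.4 ± 2.0 against 28.6 ± 1.4 CPM, adjusted p = 0.63), and neither did E2f1 (48.6 ± 1.8 against 43.5 ± 5.4 CPM, adjusted p = 0.149), which passed without control replicate 1 (adjusted p = 0.0081). The repressor gene E2f6 was 1.49-fold higher, at 50.7, 48 and 45 CPM in control and 73.3, 72.4 and 68.4 CPM in p21 cells (adjusted p = 0.000111). The other gene called higher was E2f3, which lost its call without control replicate 3 (adjusted p = 0.052).

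Genes of the G2 and M phases, known targets of the DREAM complex, fell as a group. Of 52 tested, 50 were lower and none higher, 32 of them by at least 2-fold, with a median of -1.07. The share lower was 96.2%, against 20.7% of all genes. With any 1 library left out, 49 to 52 were lower. The promoters of 4 members of this group are printed below in 170-base stretches, 5′ to 3′ on the strand of the gene. Each runs from 150 bases before to 20 bases after the RefSeq gene start (GRCm38.p6). Capitals mark CHR elements (TTTGAA or TTTAAA) and CCAAT boxes on either strand, so that a match on the other strand appears as TTCAAA or ATTGG.
Cdk1 promoter, chr10:69352893-69353062, minus strand: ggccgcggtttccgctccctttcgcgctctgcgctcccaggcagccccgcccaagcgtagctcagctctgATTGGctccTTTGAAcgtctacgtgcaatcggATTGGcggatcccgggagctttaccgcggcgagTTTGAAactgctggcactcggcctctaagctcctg
Ccnb2 promoter, chr9:70421535-70421704, minus strand: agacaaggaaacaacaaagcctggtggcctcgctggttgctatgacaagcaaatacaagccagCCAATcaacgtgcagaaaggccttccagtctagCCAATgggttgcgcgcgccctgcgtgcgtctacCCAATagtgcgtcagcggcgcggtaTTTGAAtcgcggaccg
Cdc20 promoter, chr4:118437324-118437493, minus strand: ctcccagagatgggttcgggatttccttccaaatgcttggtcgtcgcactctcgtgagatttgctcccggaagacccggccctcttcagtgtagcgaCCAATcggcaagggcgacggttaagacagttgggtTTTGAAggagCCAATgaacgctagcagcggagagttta
Kif11 promoter, chr19:37376232-37376401, plus strand: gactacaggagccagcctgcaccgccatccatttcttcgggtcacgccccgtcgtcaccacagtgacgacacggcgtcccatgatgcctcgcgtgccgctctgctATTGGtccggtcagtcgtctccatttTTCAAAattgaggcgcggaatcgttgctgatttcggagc
Each of the 4 stretches held both motifs, with 2 CHR matches and 2 CCAAT matches for Cdk1, 1 and 3 for Ccnb2, 1 and 2 for Cdc20, and 1 of each for Kif11.

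The expression of these 4 genes fell by similar factors. Kif11, the kinesin that pushes spindle poles apart, stood at 74.6, 71.9 and 71.5 CPM in control and 30.1, 31.8 and 34.5 CPM in p21 cells, 2.26-fold lower (adjusted p = 6.52e-06). Ccnb2 stood at 58.6, 51.8 and 50.7 CPM against 22.2, 25.4 and 26.9 CPM, 2.16-fold lower (adjusted p = 1.48e-05). Cdc20, the activator of the anaphase-promoting complex, was 1.99-fold lower at 60.7, 69.4 and 66.5 CPM against 147.2, 121.6 and 121.8 CPM (adjusted p = 3.01e-05). The groups were separate for each of them. The kinetochore gene Ndc80 and Cenpa, the histone variant of centromeres, were 2.2-fold and 2.28-fold lower, and Ckap2l, a spindle protein, 2.13-fold lower. Tubb4b and Gtse1 did not pass (adjusted p = 0.0763 and 0.0848). Both passed with replicates 1 and 2 alone and without control replicate 3 (adjusted p = 0.0293 for Tubb4b and 0.021 for Gtse1 in the latter).

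Over all members with a single promoter in the RefSeq table, a CHR element lay in 33 of 41 G2/M promoters, from 250 bases before to 50 bases after the start (80.5%). The same motif lay in 18.8% of the 8600 promoters of all genes tested. It was found in 44.9% of the 178 promoters of genes called lower by at least 2-fold, a group that includes G2/M genes, in 21.9% of all genes called lower and in 16.6% of genes called higher. A CCAAT box lay in 73.2% of G2/M promoters, against 38.8% of all, and both motifs together in 63.4% against 7.57%. The CHR matches also lay nearer to the start: 31 of 48 in G2/M promoters (64.6%) began within 50 bases of it, against 22.9% of matches in all genes tested, where 33.3% of the window lies within that distance. A match describes letters and not the binding of a protein.

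**Figure D2:**
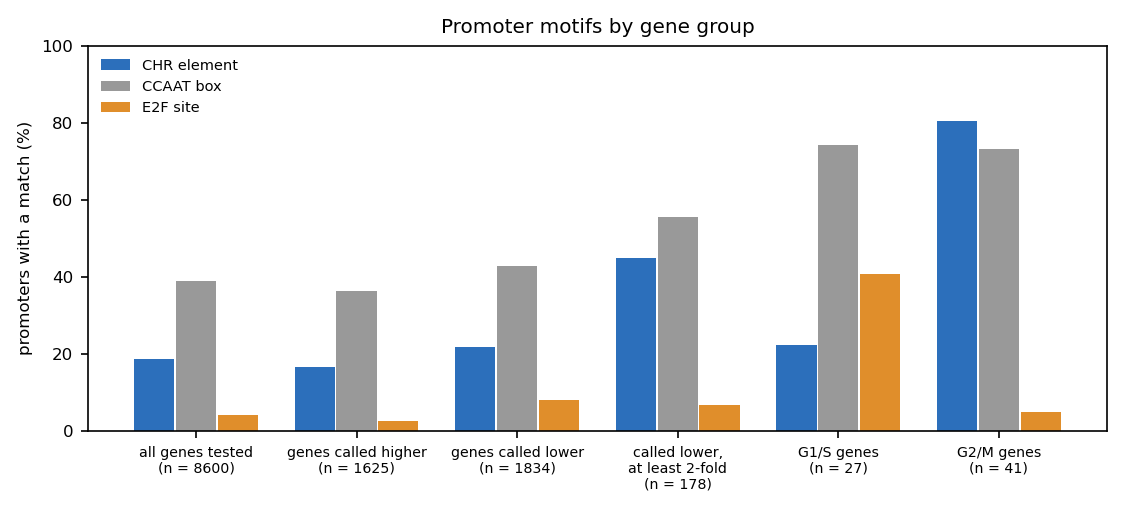
Share of promoters (percent) that hold a CHR element, a CCAAT box or an E2F site on either strand, in 6 groups of genes, with the number of promoters under each group. CHR elements reach 80.5% in G2/M genes and 22.2% in G1/S genes, while E2F sites reach 40.7% in G1/S genes and 4.88% in G2/M genes.

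Genes of the G1/S transition and of DNA replication fell less far. Of 42 tested, 39 were lower (92.9%, against 20.7% of all genes) and none higher, with a median of -0.74. Of these, 7 fell by at least 2-fold. Uhrf1, which keeps DNA methylation through replication, was 2.2-fold lower, the helicase component gene Cdc45 1.92-fold, and the chromatin ATPase gene Atad2 1.83-fold lower. Rrm2, the S-phase subunit of ribonucleotide reductase, did not pass, with 280, 170 and 145 CPM in control libraries and 149, 169 and 121 CPM in p21 libraries (adjusted p = 0.161). The 2 promoters below, printed to set beside those of the mitotic genes, hold E2F sites (TTTGGCGC, TTTCCCGC, TTTCGCGC or TTTGCCGC, either strand) in capitals, with CCAAT boxes where present. In Mcm6 the first capital run is an overlap of 2 E2F matches on opposite strands.
Mcm6 promoter, chr1:128359686-128359855, minus strand: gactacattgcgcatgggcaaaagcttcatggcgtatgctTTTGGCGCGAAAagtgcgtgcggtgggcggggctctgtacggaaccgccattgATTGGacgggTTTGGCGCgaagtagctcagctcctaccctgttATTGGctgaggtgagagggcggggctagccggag
Cdc6 promoter, chr11:98908001-98908170, plus strand: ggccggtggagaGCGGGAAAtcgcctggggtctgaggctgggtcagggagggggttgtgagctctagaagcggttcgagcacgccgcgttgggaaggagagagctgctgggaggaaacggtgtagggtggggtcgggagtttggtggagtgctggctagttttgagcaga
Mcm6, a subunit of the replicative helicase, stood at 156.4, 136.6 and 125.5 CPM in control and 76.1, 87.5 and 87.8 CPM in p21 cells, 1.67-fold lower (adjusted p = 0.00018). Cdc6, which loads that helicase, was 2.02-fold lower (mean 9.3 ± 0.9 against 18.7 ± 3.4 CPM, adjusted p = 0.000259). Neither printed stretch holds a CHR element. E2F sites lay in 11 of 27 G1/S promoters (40.7%) and in 2 of 41 G2/M promoters (4.88%), against 4.16% of all genes tested. CHR elements lay in 6 of the 27 (22.2%). The genes whose promoters are printed were chosen after their values were seen.

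The enzymes that supply and repair DNA in dividing cells followed. Of 26 genes of homologous recombination and the Fanconi pathway, which mends cross-linked DNA at replication forks, 24 were lower and none higher (median -0.74). The share lower was 92.3%, against 20.7% of all genes. Fancd2 stood at 14.9, 13.1 and 13.7 CPM in control and 4.94, 6.53 and 6.29 CPM in p21 cells, 2.35-fold lower (adjusted p = 4.74e-05). Brca1 and Fanci were 2.09-fold and 2.2-fold lower, with no overlap between the groups. The 2 genes that did not pass, Fancc and Rad51b, were also below every control library, at 1.15-fold and 1.63-fold (adjusted p = 0.0806 and 0.05). Of 28 genes of nucleotide synthesis, 21 were lower (75%, against 20.7% of all genes) and none higher (median -0.42). The salvage enzyme gene Tk1 was 2.03-fold lower, Rrm1, the larger ribonucleotide reductase subunit, 1.78-fold, the dUTPase gene Dut 1.59-fold and Pfas, a step of purine synthesis, 1.49-fold lower. Ctps, the CTP synthase gene, stood at 178.7 ± 13.2 against 180.4 ± 22.7 CPM and did not pass (adjusted p = 0.917).

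Ubiquitin ligases of the cycle were called in both directions. Of 24 tested, 13 were lower and 3 higher (54.2% and 12.5%, against 20.7% and 19.3% of all genes). Ube2c, the ubiquitin carrier of the anaphase-promoting complex, was 2.19-fold lower (mean 33.9 ± 3.6 against 74.1 ± 6.3 CPM, adjusted p = 1.94e-05), and Fbxo5, the inhibitor of that complex, 2.2-fold lower. Usp1, which removes ubiquitin from Fancd2 protein, was 1.85-fold lower. Cul1, the scaffold of another ligase, did not pass (119.6 ± 0.6 against 124.0 ± 4.1 CPM, adjusted p = 0.388). Among 34 regulators of small GTPases and adhesion, 8 were higher and 5 lower (5 higher without p21 replicate 2). The shares were 23.5% and 14.7%, against 19.3% and 20.7% of all genes tested. The 3 largest falls were in regulators of cytokinesis: Racgap1 (2.08-fold), Ect2 (1.99-fold) and Arhgap11a (1.89-fold), while Rhou, a GTPase of cell spreading, was 1.23-fold higher.

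**Figure D3:**
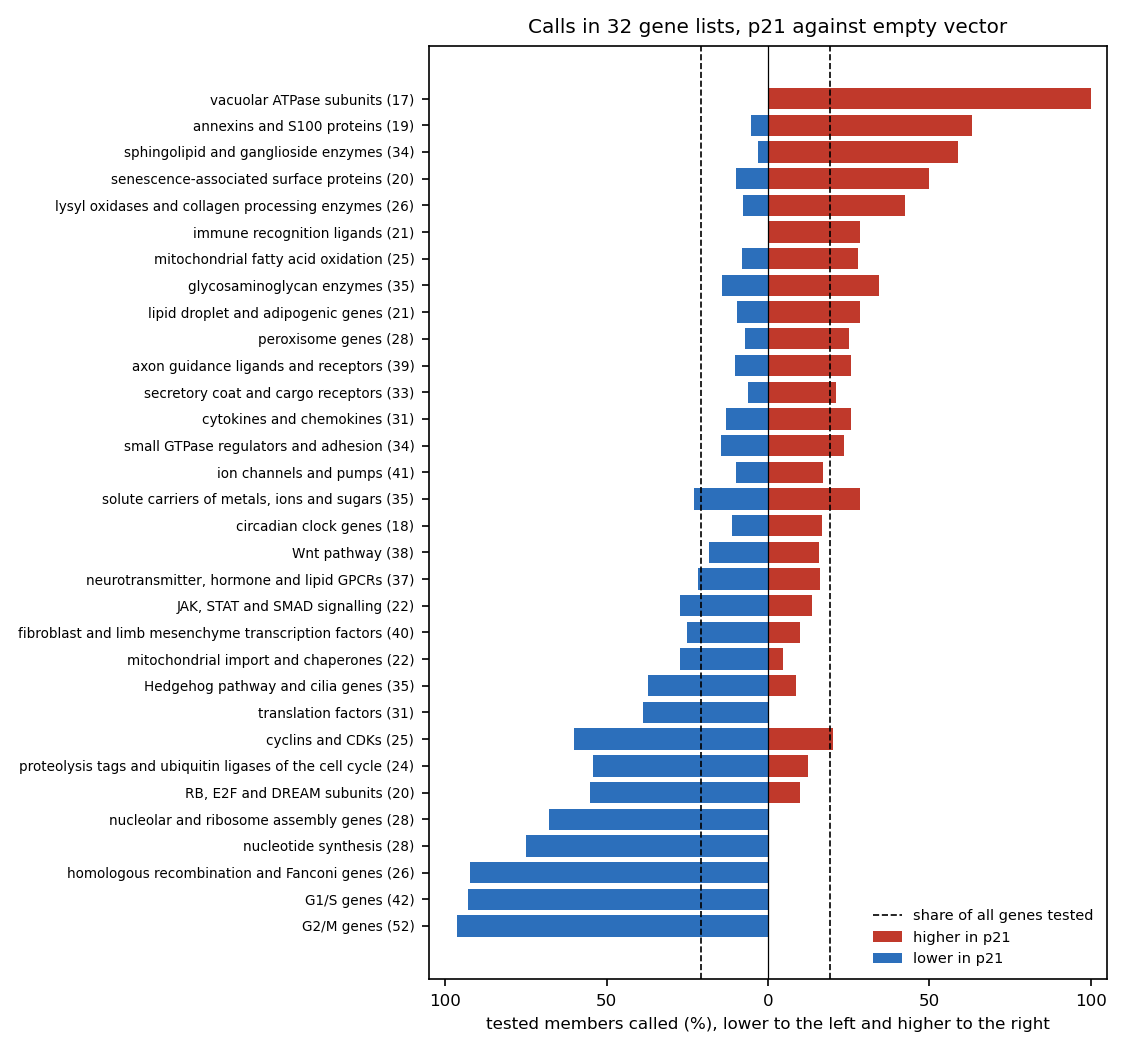
Share of the tested members of 32 gene lists that were called higher (red, right) or lower (blue, left) in p21 cells, in percent, with the number of tested members after each name. Dashed lines mark the shares over all genes tested, 19.3% higher and 20.7% lower. All 17 tested vacuolar ATPase subunits, or all 16 without Atp6v0d2, stand at the higher end and 50 of 52 G2/M genes at the lower end.

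Subunits of the vacuolar ATPase, which acidifies lysosomes and endosomes, were higher in p21 cells. Of the 18 listed, 17 passed the filter on low counts, and these 17 were called higher under every alternative run, with a median log2 fold change of 0.57. One of them, Atp6v0d2, known from osteoclasts and macrophages, had only 4, 7 and 2 counts in the control libraries, against 27, 22 and 9 in the p21 libraries, and would not have passed the filter on its control libraries. It is left out of the rest of this paragraph but not of the plotted lists. The other 16 were 1.23-fold to 1.62-fold higher, with a median of 0.56. The listed gene that did not pass the filter, Atp6v0c, has near-identical copies in the genome, to which the authors' counting could have split reads. Of the membrane sector, Atp6v0d1 (chromosome 8, 105524465 to 105566047, minus strand) stood at 72.1, 75.0 and 73.3 CPM in control and 127.1, 121.0 and 108.4 CPM in p21 cells, 1.62-fold higher (adjusted p = 3.38e-05). Atp6v0e was 1.53-fold higher. Of the catalytic sector, Atp6v1a stood at 108.0, 101.7 and 93.8 CPM against 161.3, 162.3 and 151.0 CPM, 1.56-fold higher (adjusted p = 5.9e-05). The accessory subunit gene Atp6ap1 was 1.46-fold higher (mean 350.3 ± 14.2 against 239.5 ± 12.9 CPM). For all 16 every p21 library lay above every control library, as for 24% of all genes tested.

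One promoter is printed for this group, for the 8 letters TCACGTGA in capitals, the palindrome at the core of the element that lysosomal genes are known to share. This motif was searched after the values were seen.
Atp6v1a promoter, chr16:44139240-44139409, minus strand: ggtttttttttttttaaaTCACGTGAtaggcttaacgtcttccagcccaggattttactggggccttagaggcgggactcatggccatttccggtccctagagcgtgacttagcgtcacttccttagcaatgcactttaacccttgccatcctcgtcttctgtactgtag
The motif lay in 3 of 11 vacuolar ATPase promoters (27.3%), against 1.85% of all genes tested and 2.65% of genes called higher.

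Of 34 genes that make or break down sphingolipids and gangliosides, 20 were higher and 1 lower (median 0.27). The shares were 58.8% and 2.94%, against 19.3% and 20.7% of all genes. Genes of synthesis and of breakdown were among the 20. Of synthesis, Kdsr and Degs1, which act in turn on the way to ceramide, were 1.52-fold and 1.48-fold higher (adjusted p = 0.00141 and 0.00421). Of breakdown, Asah1, the acid ceramidase of the lysosome, stood at 212.6, 228.0 and 216.2 CPM in control and 347.0, 352.5 and 336.3 CPM in p21 cells, 1.58-fold higher (adjusted p = 1.45e-05). Psap, whose product gives the activators of these hydrolases, was 1.56-fold higher (mean 1221 ± 49 against 785 ± 38 CPM, adjusted p = 2.28e-05). Asah2, the neutral ceramidase, was 1.74-fold higher. The ceramide synthase gene Cers2 did not pass (158.6 ± 5.2 against 148.0 ± 10.3 CPM, adjusted p = 0.181), though it passed without control replicate 1 (adjusted p = 0.0437). Smpd2, a sphingomyelinase, did not pass (adjusted p = 0.993). Of the receptors of sphingosine 1-phosphate, a product of this pathway, S1pr3 was 2.28-fold lower, at 78.7, 106.1 and 114.8 CPM in control and 34.7, 34.5 and 62.3 CPM in p21 cells (adjusted p = 0.00344), and S1pr1 was 1.33-fold lower (adjusted p = 0.000887).

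Of 20 genes for proteins described on the surface or in the lysosomes of senescent cells, 10 were higher and 2 lower. The shares were 50% and 10%, against 19.3% and 20.7% of all genes. The lysosomal membrane glycoprotein gene Lamp1 stood at 622, 623 and 562 CPM in control and 969, 948 and 890 CPM in p21 cells, 1.55-fold higher (adjusted p = 6.75e-05). Gpnmb, a lysosome-associated glycoprotein (chromosome 6, 49036546 to 49070929, plus strand), stood at 6.86, 5.29 and 4.17 CPM against 29.0, 22.7 and 18.7 CPM, 4.32-fold higher (adjusted p = 6.6e-05). Lamp2, the tetraspanin genes Cd81, Cd63 and Cd151, and Cd44 and B2m were 1.18-fold to 1.5-fold higher, while Glb1 was 1.70-fold higher. Notch1, the receptor known to rise and fall through senescence, was 1.62-fold lower (mean 30.1 ± 1.7 against 48.9 ± 0.6 CPM, adjusted p = 2.28e-05). Dpp4 was the other gene called lower, at no more than 0.6 CPM in any library, and it lost its call without control replicate 2 or 3 or any 1 p21 replicate (adjusted p up to 0.1). Plaur, the urokinase receptor, did not pass (188.5 ± 22.9 against 183.0 ± 30.5 CPM, adjusted p = 0.818).

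Markers of macrophages, cells rich in lysosomes, also rose. Of 17 tested markers 12 were higher (70.6%, against 19.3% of all genes tested) and none lower, with a median of 1.5. With 1 library left out, 9 to 12 were higher. The summed level of all 19 listed markers was 15 to 18.1 CPM in the control libraries and 29.7 to 53.8 CPM in the p21 libraries. Lyz2, lysozyme of myeloid cells, stood at 3.13, 3.87 and 4.64 CPM against 12.3, 16.3 and 23.3 CPM. The markers Ptprc, Emr1 and Tyrobp lay between 0.14 and 0.39 CPM in control and between 0.60 and 1.33 CPM in p21 cells. They were 2.99-fold, 4.01-fold and 2.90-fold higher. At such low levels a marker can pass the filter on low counts through its p21 libraries alone, which was not tested for each marker. Csf1r was 1.72-fold higher at 2.16 to 4.22 CPM (adjusted p = 0.043), a call lost without any 1 of the control replicates or p21 replicate 2 or 3 (adjusted p up to 0.137), and Cd68 and Cd14 did not pass (adjusted p = 0.412 and 0.756). Itgam, Fcer1g and Cd74 did not pass either. The lowest log2 fold change among the tested markers was -0.83. Fcgr1 and Aif1 fell under the filter. The summed level was highest in p21 replicate 3, at 53.8 CPM. The mean summed level of the 19 listed markers rose by 24.7 CPM, a value not corrected for transcript length. In bulk libraries more cells of a type and more RNA per cell cannot be told apart, and the part of these markers in the lysosomal results was not tested.

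**Figure D4:**
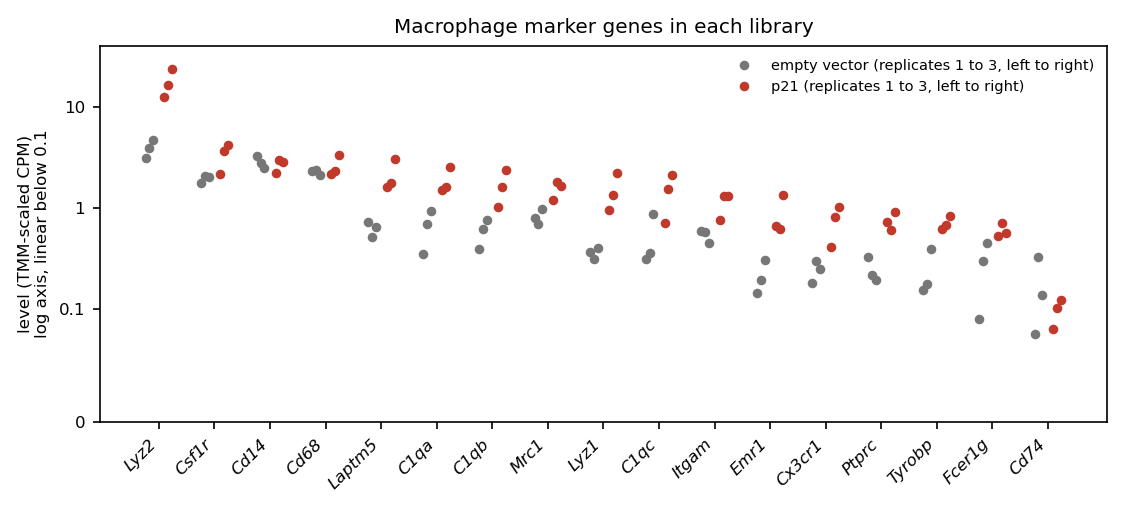
Level of the 17 tested macrophage markers in each library, in TMM-scaled CPM on a log axis that is linear below 0.1. Grey points are empty vector libraries and red points p21 libraries, replicates 1 to 3 from left to right. Lyz2 reaches 12.3 to 23.3 CPM in p21 libraries, while Cd14 and Cd68 overlap between the groups.

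Secreted signals were changed for single members rather than as a class. Of 31 cytokines and chemokines tested, 8 were higher and 4 lower (25.8% and 12.9%, against 19.3% and 20.7% of all genes), and the median was 0.00. Cxcl14, a chemokine that attracts natural killer cells and monocytes (chromosome 13, 56288643 to 56296551, minus strand), stood at 20.2, 25.6 and 25.8 CPM in control and 75.1, 52.5 and 66.2 CPM in p21 cells, 2.71-fold higher (adjusted p = 7.07e-05). The monocyte attractants Ccl7 and Ccl2 were 1.83-fold and 1.30-fold higher (adjusted p = 0.004 and 0.00128). Il34, a ligand of the receptor Csf1r, was 1.55-fold higher (mean 7.97 ± 0.37 against 5.14 ± 0.37 CPM, adjusted p = 0.000983), and Ccl17 2.17-fold higher at under 2 CPM.

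Csf1, the other ligand of that receptor, stood at 1240, 918 and 702 CPM in control and 1639, 1780 and 1115 CPM in p21 cells. The libraries overlapped, the difference of 1.58-fold gave an adjusted p of 0.0479, and the call was lost without control replicate 2 or 3 or p21 replicate 1 or 2 (adjusted p up to 0.145). Il6, a hallmark cytokine of senescent cells, was 1.8-fold higher at 1.65 to 3.26 CPM (adjusted p = 0.0335) and lost its call without control replicate 1 or 2 or p21 replicate 3 (adjusted p up to 0.11). Mif was 1.31-fold lower (adjusted p = 0.00307). Cxcl16, Cxcl5, Flt3l and Clcf1 passed in the fit of all libraries and not with 1 or more libraries left out (adjusted p up to 0.152), and the count of members lower was 2 without any 1 of the control replicates or p21 replicate 2 or 3. Cxcl12, at 303, 416 and 663 CPM in control and 213, 271 and 452 CPM in p21 cells, did not pass (adjusted p = 0.242). It did with replicates 1 and 2 alone (adjusted p = 0.0264) and with a replicate term in the fit (adjusted p = 3.34e-06).

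Ligands by which immune cells read other cells showed 6 of 21 tested members higher and none lower (3 higher without control replicate 2 or p21 replicate 1). The share higher was 28.6%, against 19.3% of all genes tested. Icam1, the ligand of leukocyte integrins, was 2.06-fold higher, at 3.10, 2.39 and 3.43 CPM in control and 6.49, 5.11 and 6.78 CPM in p21 cells (adjusted p = 0.00116). Lgals9, a galectin that binds immune receptors, was 1.44-fold higher (adjusted p = 0.0103). Cd59a, a complement inhibitor, was 2.44-fold higher (adjusted p = 0.0143) and lost its call without control replicate 2 or p21 replicate 1 (adjusted p up to 0.0595). Thbs1, which encodes the matrix protein thrombospondin, did not pass (17700 ± 737 against 16350 ± 434 CPM, adjusted p = 0.13), although each p21 library lay above each control library.

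Annexins and S100 proteins, calcium-binding proteins that can leave cells, were mostly higher, with 12 of 19 called higher and 1 lower (median 0.25). Their shares were 63.2% and 5.26%, against 19.3% and 20.7% of all genes. S100a1, S100a13, S100a16, S100a4 and S100a6 lie within 1 stretch of chromosome 3, between 90511034 and 90624181. S100a16 stood at 19.5, 27.9 and 22.3 CPM in control and 52.3, 51.5 and 44.7 CPM in p21 cells, 2.13-fold higher (adjusted p = 0.000106). S100a1 was 2.09-fold and S100a13 1.85-fold higher. They are neighbours on opposite strands, and the kit did not mark strand, so reads where their transcripts overlap cannot be told apart. S100a6 stood at 2480, 2157 and 1879 CPM against 3157, 3426 and 2756 CPM, 1.43-fold higher (adjusted p = 0.00503). Anxa1, an annexin that dampens inflammation, was 1.4-fold higher (mean 1681 ± 97 against 1202 ± 111 CPM, adjusted p = 0.000762), and Anxa6 did not pass (adjusted p = 0.895).

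The machinery of the secretory pathway itself stayed mostly uncalled. Of 33 coat proteins and cargo receptors, 7 were higher and 2 lower (21.2% and 6.06%, against 19.3% and 20.7% of all genes). The median was 0.01. Without control replicate 3 or any 1 of the 3 p21 replicates, 4 were higher. Mcfd2, a cargo receptor subunit of the early secretory pathway, was 1.57-fold higher (mean 224.7 ± 8.0 against 142.7 ± 7.0 CPM, adjusted p = 2.84e-05) and Ergic1, a protein of the same compartment, 1.29-fold higher. Copa, a coat subunit, did not pass (550.7 ± 6.1 against 569.7 ± 21.3 CPM, adjusted p = 0.378). Of 22 genes that relay cytokine and TGF-beta signals, 3 were higher and 6 lower (13.6% and 27.3%, against 19.3% and 20.7% of all genes). The number lower was 1 without p21 replicate 1, 2 without control replicate 2, and 3 without control replicate 3 or p21 replicate 2. Cish, an inhibitor of cytokine receptors, was 1.30-fold higher (adjusted p = 0.00874), Smad5 1.17-fold lower (adjusted p = 0.01), and Stat3 did not pass (adjusted p = 0.654).

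Matrix genes gave several of the largest rises in CPM, a scale that is not corrected for transcript length. Fn1, which encodes fibronectin (chromosome 1, 71585520 to 71653200, minus strand), stood at 10090, 12970 and 14290 CPM in control and 22840, 22090 and 21970 CPM in p21 cells, a rise of 9849 CPM (1.79-fold, adjusted p = 0.000521). Its receptor subunit gene Itgb1 rose by 1448 CPM (1.63-fold, adjusted p = 3.09e-05), Sparc, a collagen-binding protein, by 1284 CPM (1.30-fold), Timp2, an inhibitor of matrix proteases, by 1079 CPM (2.05-fold, adjusted p = 6.52e-06) and Col5a2 by 1037 CPM (1.27-fold). Fbln2 rose by 993.8 CPM (1.26-fold, adjusted p = 0.0175), but the test was not passed without p21 replicate 1 or 3 (adjusted p up to 0.0536). The major collagen genes did not pass: Col1a1 stood at 14260 ± 716 against 14550 ± 3295 CPM (adjusted p = 0.887) and Col1a2 at 8560 ± 1015 against 9148 ± 2181 CPM (adjusted p = 0.673).

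Enzymes that cross-link and process collagen were more often higher than lower, 11 against 2 of 26 (median 0.21). Their shares were 42.3% and 7.69%, against 19.3% and 20.7% of all genes. Fkbp10 and Lepre1, helpers of collagen folding and hydroxylation in the endoplasmic reticulum, were both 1.20-fold higher, and Glt25d1, which adds galactose to collagen, 1.21-fold higher. Lox, a lysyl oxidase, stood at 1740, 2425 and 2853 CPM in control and 2335, 2347 and 3120 CPM in p21 cells and did not pass (adjusted p = 0.534). Serpinh1, the collagen chaperone, was 1.17-fold lower (adjusted p = 0.00456), a gene named after its values were seen. Among 35 glycosaminoglycan enzymes 12 were higher and 5 lower (34.3% and 14.3%, against 19.3% and 20.7% of all genes). The number lower was 1 without control replicate 2, 2 without control replicate 3 or p21 replicate 1 or 2, and 3 without p21 replicate 3. The higher ones included Chst12 and Chst11, which sulfate chondroitin (1.61-fold and 1.75-fold), B4galt7, which builds the linker of these chains to proteins (1.71-fold), and Extl3, which starts heparan sulfate (1.45-fold). Chst12 stood at 90.7, 89.4 and 85.3 CPM in control and 144.9, 142.2 and 139.8 CPM in p21 cells (adjusted p = 1.1e-05). Sulf1, which trims heparan sulfate, did not pass (adjusted p = 0.618).

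Several genes of contractile cells rose as well. Acta1, the actin of skeletal muscle, stood at 135.8, 103.7 and 98.9 CPM in control and 363.7, 395.0 and 287.2 CPM in p21 cells, 3.09-fold higher (adjusted p = 3.14e-05). Myh11, the myosin of smooth muscle, was 2.38-fold higher (mean 146.7 ± 15.3 against 61.5 ± 6.6 CPM, adjusted p = 2.41e-05) and Des, desmin, 2.40-fold higher. Tagln rose by 1144 CPM (1.35-fold, adjusted p = 0.00292). Acta2, the actin of smooth muscle and myofibroblasts, rose by 1505 CPM (1.26-fold, adjusted p = 0.019) and lost its call without control replicate 2 or 3 (adjusted p up to 0.0686). In all, 7 of 11 pericyte and smooth muscle markers were higher and none lower (4 higher without control replicate 2). The share higher was 63.6%, against 19.3% of all genes. Rgs5, a pericyte marker, was 1.69-fold higher, while Cspg4 and Notch3 did not pass. Of the skeletal muscle markers 3 of 6 tested were higher (50%, against 19.3% of all genes), while Mylpf and Tnnt3 did not pass. Des is counted in both lists. The muscle-determining genes Myod1, Myf5, Myog and Pax7 were under the filter on low counts. Fibroblast markers themselves showed 2 of 13 higher and 3 lower (15.4% and 23.1%, against 19.3% and 20.7% of all genes). Pdgfra, the platelet-derived growth factor receptor of mesenchyme, was 2.37-fold lower, at 20.5, 27.9 and 39.7 CPM in control and 10.2, 10.6 and 16.5 CPM in p21 cells (adjusted p = 0.00448).

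Each list of markers of the other cell types had 2 or 3 members called. Of endothelial markers 1 of 10 was higher (Emcn, 2.36-fold) and 1 lower (Erg, 5.50-fold, at 0.98 to 2.05 CPM in control and 0.18 to 0.35 CPM in p21 cells). Of 7 epithelial markers Dsp and Cldn4 were higher. Of 8 cartilage and bone markers 1 was higher and 2 lower: the summed level of the list ran from 745 to 1440 CPM in control and from 450 to 697 CPM in p21 libraries, mostly as Col2a1, the collagen of cartilage. Col2a1 stood at 664, 861 and 1309 CPM in control and 373, 425 and 610 CPM in p21 cells, 2.01-fold lower (adjusted p = 0.021), and lost its call without control replicate 3 or p21 replicate 1 or 2 (adjusted p up to 0.0857). Of 6 nerve markers 1 was higher and 1 lower, and of 7 mesothelial markers 2 were higher.

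**Figure D5:**
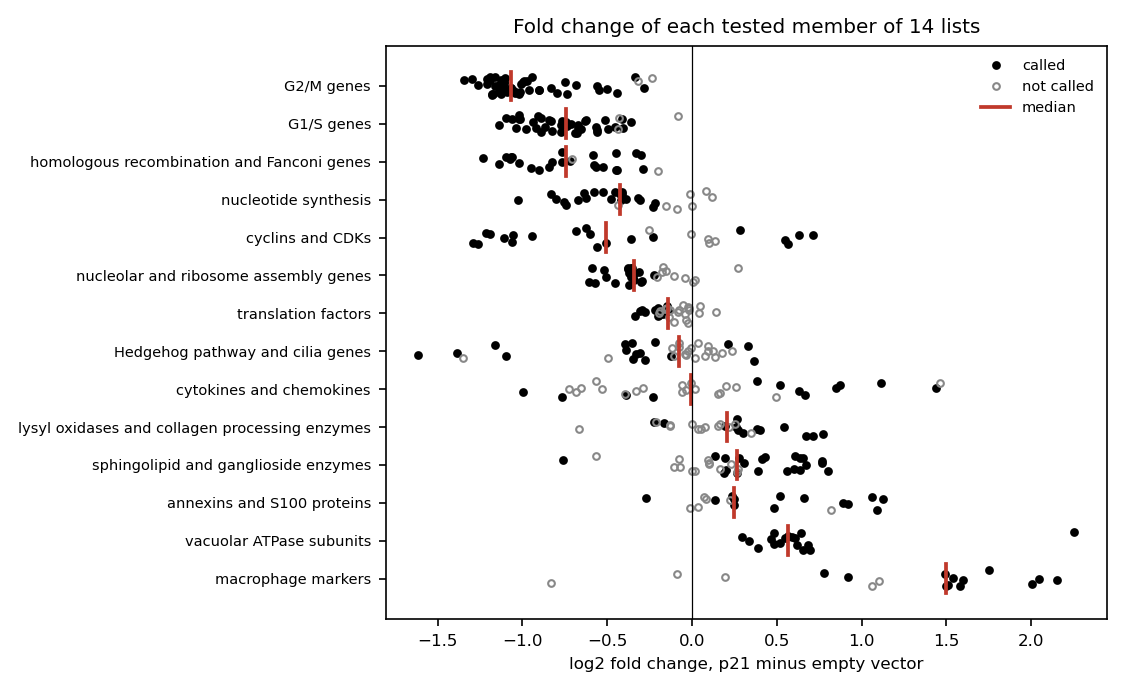
Log2 fold change (p21 minus empty vector) of each tested member of 14 gene lists. Filled points are called genes, open points genes that did not pass, and red bars the list medians. G2/M genes centre on -1.07 and vacuolar ATPase subunits on 0.57 (0.56 without Atp6v0d2), while the cytokines spread to both sides of 0.

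Genes of ribosome assembly fell and none rose. Of 28 nucleolar genes 19 were lower (67.9%, against 20.7% of all genes), and 11 without p21 replicate 1. The median was -0.34. Ubtf, the factor that opens ribosomal DNA for polymerase I, stood at 144.0, 148.6 and 148.1 CPM in control and 92.8, 96.0 and 104.0 CPM in p21 cells, 1.5-fold lower (adjusted p = 3.14e-05). Dkc1, the pseudouridine synthase of ribosomal RNA, was 1.52-fold lower and Polr1c, a subunit of polymerase I, 1.27-fold lower. Myc, the transcription factor known to drive these genes, was 1.29-fold lower (mean 90.1 ± 4.8 against 116.6 ± 5.8 CPM, adjusted p = 0.00112). Nop2, a ribosomal RNA methylase, did not pass (adjusted p = 0.814).

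Of 31 translation factors 12 were lower and none higher (7 lower without p21 replicate 1). The share lower was 38.7%, against 20.7% of all genes. Eef1a1, which brings charged transfer RNA to the ribosome, fell by more than any other called gene in CPM, from 8939 ± 164 to 7233 ± 116 CPM (1.24-fold, adjusted p = 0.000571). Eif3c and Eif4b, initiation factors, were 1.26-fold and 1.23-fold lower. Ptma, which encodes a small nuclear protein of dividing cells, stood at 1189, 1021 and 950 CPM in control and 620, 614 and 627 CPM in p21 cells, 1.70-fold lower (adjusted p = 8.98e-05), and Ldha, the last enzyme of glycolysis, was 1.22-fold lower (adjusted p = 0.00158). The ribosomal protein genes Rpsa and Rps2 were 1.29-fold and 1.19-fold lower. Like Eef1a1 and Ptma, they have many processed copies in the genome, to which the authors' counting could have split reads. Rn45s, the ribosomal RNA precursor, was 1.28-fold lower (adjusted p = 0.0119) and lost its call without p21 replicate 1 (adjusted p = 0.0522).

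Lipid metabolism changed at selected steps. Mgll, which splits monoacylglycerol, stood at 15.5, 18.3 and 13.6 CPM in control and 49.95, 58.9 and 38.5 CPM in p21 cells, 3.10-fold higher (adjusted p = 5.68e-05), and Plin2, a coat protein of lipid droplets, was 1.55-fold higher (adjusted p = 0.000821). Of 21 lipid droplet and adipogenic genes 6 were higher and 2 lower, with 3 higher without control replicate 2 or p21 replicate 1. Fabp5, a fatty acid carrier, was 1.41-fold lower. In mitochondrial fatty acid oxidation, where 7 of 25 were higher and 2 lower, Cpt1a, the entry step, was 1.4-fold higher (mean 75.1 ± 1.7 against 53.5 ± 3.2 CPM, adjusted p = 0.000158) and Acadvl 1.26-fold, while the activating enzyme gene Acsl3 was 1.46-fold lower. Of 28 peroxisome genes 7 were higher and 2 lower. The shares called higher in these 3 lists were 25% to 28.6%, against 19.3% of all genes tested. In mitochondrial import 6 of 22 genes were lower and 1 higher (27.3% and 4.55%, against 20.7% and 19.3% of all genes). The chaperone gene Hspa9 was 1.23-fold lower (adjusted p = 0.000311), and Hspd1 did not pass (446.9 ± 22.3 against 496.6 ± 88.6 CPM, adjusted p = 0.332).

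Among 35 solute carriers and metal-handling genes, 10 were higher and 8 lower (28.6% and 22.9%, against 19.3% and 20.7% of all genes). Tfrc, the transferrin receptor that brings iron into cells, stood at 155.2, 146.6 and 119.7 CPM in control and 80.8, 81.9 and 84.7 CPM in p21 cells, 1.70-fold lower (adjusted p = 0.000351). The ferritin light chain gene Ftl1, which stores iron, rose by 850.1 CPM (1.34-fold, adjusted p = 0.0137). The lactate carrier gene Slc16a1 was 1.56-fold lower (adjusted p = 0.00081). Slc2a13, a transporter of inositol, was 1.82-fold higher and the zinc transporter genes Slc39a8 and Slc39a13 1.66-fold and 1.25-fold higher. Mt1, a metallothionein that binds zinc, was 1.51-fold higher (adjusted p = 0.0043). Slc40a1, the iron exporter, did not pass (adjusted p = 0.0717), and the glucose transporter gene Slc2a1 did not pass either (adjusted p = 0.67). Among 41 ion channels and pumps 7 were higher and 4 lower (17.1% and 9.76%, against 19.3% and 20.7% of all genes). The mechanosensitive channel gene Piezo1 stood at 529, 485 and 471 CPM in control and 681, 771 and 590 CPM in p21 cells, 1.38-fold higher (adjusted p = 0.00511), and Cacna2d1, an accessory subunit of calcium channels, was 1.53-fold higher.

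Some genes of the Hedgehog pathway and of cilia were lower, and others did not pass. Of 35 Hedgehog and cilia genes 13 were lower and 3 higher (37.1% and 8.57%, against 20.7% and 19.3% of all genes). The median was -0.08. Without control replicate 2 or 3 or p21 replicate 1 or 2, 6 to 8 were lower. Gli2, the main activator of Hedgehog targets, stood at 7.73, 11.2 and 16.9 CPM in control and 3.37, 3.11 and 5.27 CPM in p21 cells, 3.06-fold lower (adjusted p = 0.00269). Arl13b, a GTPase of the cilium, and Ift80, a carrier within it, were 1.24-fold and 1.31-fold lower, while the kinesin subunit gene Kif3b was 1.29-fold higher (adjusted p = 0.000211). Sufu, an inhibitor of Gli proteins, did not pass (adjusted p = 0.179), and neither did Gli1, Ptch1, Boc or Cdon. Of 38 Wnt pathway genes 6 were higher and 7 lower, with 3 or 4 lower without control replicate 2 or 3 or p21 replicate 1 or 2. Their shares, 15.8% and 18.4%, lay near the 19.3% and 20.7% of all genes tested. The ligand gene Wnt5a was 1.30-fold higher (mean 136.7 ± 0.6 against 105.2 ± 6.2 CPM, adjusted p = 0.000602) and its receptor gene Ror2 1.42-fold lower (mean 31.4 ± 0.9 against 44.6 ± 2.8 CPM, adjusted p = 0.000132).

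Among 40 transcription factors of fibroblasts and limb mesenchyme, 4 were higher and 10 lower, with 5 or 6 lower without control replicate 2 or p21 replicate 1 or 2. The shares were 10% and 25%, against 19.3% and 20.7% of all genes tested. Msx2, a homeobox factor of limb and skull, stood at 15.1, 10.5 and 8.23 CPM in control and 39.8, 41.1 and 24.0 CPM in p21 cells, 3.10-fold higher (adjusted p = 0.000787). Meox1, a factor of the somites, was 2.01-fold lower, Foxp1 1.44-fold and Osr1 1.39-fold lower. Of 39 axon guidance genes, which also steer other migrating cells, 10 were higher and 4 lower. The shares were 25.6% and 10.3%, against 19.3% and 20.7% of all genes. Without control replicate 2 or 3 or p21 replicate 2, 5 or 6 were higher. Sema7a, a semaphorin that binds integrins, was 1.89-fold higher (mean 74.2 ± 0.6 against 39.2 ± 7.5 CPM, adjusted p = 0.000301) and Ephb2, an ephrin receptor, 1.67-fold lower. Of 37 G protein-coupled receptors 6 were higher and 8 lower (16.2% and 21.6%, against 19.3% and 20.7% of all genes). The number higher was 2 or 3 without control replicate 1 or 3 or p21 replicate 1, and the number lower was 4 without control replicate 3 or p21 replicate 1. Adra1b, an adrenergic receptor, was 1.72-fold higher. Of 18 clock genes 3 were higher and 2 lower (16.7% and 11.1%, against 19.3% and 20.7% of all genes). Rora, an activator of the clock loop, stood at 7.26, 7.78 and 9.11 CPM in control and 18.1, 15.8 and 16.6 CPM in p21 cells, 2.09-fold higher (adjusted p = 5.25e-05), while Clock and Arntl, the core activators, did not pass (adjusted p = 0.18 and 0.368).

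The largest rises among called genes of at least 2 in mean log2 CPM and with separate groups include several genes outside these lists. Parm1, a mucin-like membrane protein (chromosome 5, 91517615 to 91626894, plus strand), stood at 3.78, 3.70 and 3.85 CPM in control and 19.4, 17.4 and 18.9 CPM in p21 cells, 4.91-fold higher (adjusted p = 7.32e-07). Slc5a7, the choline transporter of cholinergic neurons, was 4.37-fold higher, at 51.7 to 84.8 CPM against 12.7 to 16.2 CPM. Kif1a, a motor of axonal transport, stood at 52.0, 46.8 and 46.6 CPM against 196.5, 169.1 and 156.3 CPM, 3.59-fold higher (adjusted p = 7.84e-06). Dsp, desmoplakin of cell junctions, was 4.39-fold, Notch4 3.72-fold, Apoe, a lipid carrier also made by macrophages, 3.41-fold, and Whrn, a scaffold of sensory hair cells, 3.41-fold higher. Dgkk, a diacylglycerol kinase, was 4.05-fold and Tmem151a 3.38-fold higher. Hist1h3b (7.83-fold), Hist1h2ab (5.99-fold), Lce1h (5.86-fold) and Serpinb9b (4.78-fold), which also rose, belong to families of similar genes whose reads the authors' counting could have split.

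The largest falls joined matrix and surface genes with genes of division. Fbn2, fibrillin of elastic fibres, was 3.33-fold lower, at 98.5, 172.8 and 273.0 CPM in control and 41.3, 50.8 and 71.4 CPM in p21 cells (adjusted p = 0.00365). Dlk1, a surface protein of immature mesenchyme, stood at 90.8, 146.1 and 195.3 CPM against 40.2, 52.4 and 61.4 CPM, 2.81-fold lower (adjusted p = 0.00265). Abi3bp, a matrix protein, was 3.05-fold lower, at 23.5, 22.2 and 24.3 CPM against 8.66, 6.81 and 7.46 CPM (adjusted p = 8.05e-06). For Fbn2, Dlk1 and Gli2 control replicate 3 was the highest library and control replicate 1 the lowest of that group. The urea transporter gene Slc14a1 was 3.16-fold, Fndc4 2.69-fold, the immediate-early gene Egr3 2.66-fold, Rnf144a 2.64-fold, Olfml3, a secreted matrix protein, 2.60-fold and Fndc1 2.52-fold lower. Clec14a was 2.56-fold lower (adjusted p = 0.0348) and lost its call without control replicate 3 or p21 replicate 1 or 2 (adjusted p up to 0.13). The dividing cells' genes Spc24 and Kif15 were both 2.54-fold lower, as was Mki67, which marks cycling cells (105.7 ± 11.8 against 267.8 ± 17.9 CPM), and Aspm was 2.53-fold lower.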

How the data were processed

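RNA of each sample was made into a TruSeq RNA library with a kit that does not mark strand and sequenced, per the labels' protocols. The submitters' processing notes name TopHat2 2.0.14, Bowtie2 2.2.6, featureCounts 1.4.6 (Subread) and the build mm10; which annotation and strand setting were used, and how reads with more than 1 place were counted, is not given in the sources used here. The authors deposited 1 table of raw counts of 24062 genes by library, of which 5462 were at 0 in all 6 libraries compared and 0 were mitochondrial genes.

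Counts of all 9 libraries were filtered with filterByExpr, which left 14572 genes holding at least 99.984% of each library's counts. They were then scaled by TMM, and the mean log2 CPM of a gene was taken over all 9. Group means of all 9 libraries were fitted with edgeR 4.0.16 (R 4.3.3, limma 3.58.1; quasi-likelihood F test, Benjamini-Hochberg adjustment, threshold 0.05) and p21 was compared with the empty vector, without a replicate term. Each SE was taken as the size of the log2 fold change over the square root of its F statistic. On simulated counts of 14427 genes the test recovered 66 of 100 genes changed 1.5-fold and 95 of 100 changed 2-fold, and called 14 unchanged genes. The changed genes all had a mean over 1 CPM, so recovery below that level was not tested. The simulated libraries shared no deviations between groups, and a far smaller part of the genes was changed than was called in the data. DESeq2 1.42.0 was an alternative.

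Genes named are Cdkn1a and Cdkn2a, the 15 largest rises and falls among called genes of mean log2 CPM of at least 2 whose libraries did not overlap, the 10 largest rises and falls in CPM, and from each list up to 4 called members by adjusted p and up to 2 that did not pass by level, or all called members where there were 12 or fewer. Not all of these are described, and some are not reported here. A few other genes were named after their values were seen, as were those with printed promoters. Members and lists were chosen with earlier results of these data known. Promoters are those of RefSeq (GRCm38.p6), 1 per gene, for 8600 of the genes tested. Motifs were searched on both strands.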

Additional observations from a re-analysis of the deposited data

How the results depend on the processing

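The numbers of genes called higher and lower moved by less than 1.5 times under each alternative run. DESeq2 gave 3078 higher and 3015 lower, no filter on low counts 2716 and 2843, the 6 libraries fitted alone 2456 and 2620, and replicates 1 and 2 alone 2669 and 2812. Scaling by library size alone gave 2465 and 3450, so that 41.7% of calls were higher, against 48.2%. With 1 library left out, 2123 to 2895 genes were higher and 2101 to 2893 lower, the fewest without p21 replicate 1, where 71.5% of the calls were kept. The share of G2/M promoters with a CHR element was 75.6% with TTTGAA alone.

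Replicate numbers did not pair the groups throughout: deviations of same-numbered libraries correlated at 0.183, 0.025 and 0.489 for replicates 1, 2 and 3. Control replicate 1 correlated best with p21 replicate 2 (0.358), and control replicate 2 with p21 replicate 1 (0.044). Control replicate 3 correlated best with p21 replicate 3, against -0.212 and -0.371 with p21 replicates 1 and 2. Both libraries numbered 3 also stood apart in Xist and Ddx3y. The main fit had no replicate term, so deviations that these libraries shared stayed in its spread. The replicate block gave 3502 genes higher and 3739 lower and kept 99.5% of the calls. Single genes were checked under each alternative for 221 of those named. Some genes named only as not passing were not among them. The block ended none of the calls of the 221 and made 7 others of them pass. These were Cxcl12 (adjusted p = 3.34e-06), Gtse1 (adjusted p = 0.0296), Rad51b (adjusted p = 0.0186) and Rrm2 (adjusted p = 0.0235). The rest were Slc40a1 (adjusted p = 0.0281), Tubb4b (adjusted p = 0.0149) and Vim (adjusted p = 0.0133). Each p21 library was below its same-numbered control for Cxcl12. Csf1, Ccnd1 and Col2a1, which lost their calls with 1 library left out, kept them with the block (adjusted p = 0.000137, 0.000125 and 8.07e-07).

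Over these genes and all alternatives, 2539 values kept their direction and side of the threshold, 65 lost their call, 18 gained one and 30 changed sign. Each change of sign was in a gene that did not pass, and the cause was not tested. With 1 library left out, log2 fold changes ran for Anxa6 from -0.04 to 0.02, Ccne1 from -0.02 to 0.26, Cd14 from -0.17 to 0.04, Cd68 from -0.02 to 0.32, Col1a1 from -0.20 to 0.11, Col1a2 from -0.27 to 0.05, Ctps from -0.08 to 0.10, Hspd1 from -0.25 to 0.00, Lox from -0.02 to 0.32, Nop2 from -0.13 to 0.12, Plaur from -0.06 to 0.18, Slc2a1 from -0.11 to 0.06, Smpd2 from -0.07 to 0.07 and Stat3 from -0.02 to 0.14. Signs also changed by DESeq2 for Anxa6 (0.00). Signs also changed with replicates 1 and 2 of each group for Anxa6 (0.00), Cd68 (-0.06), Col1a1 (0.07), Sulf1 (-0.01). Signs also changed with library size alone for Smpd2 (-0.03), Sulf1 (-0.00). Signs also changed with replicate block for Smpd2 (-0.00). At the depth of these libraries, tested genes under 1 CPM rest on few counts, macrophage markers among them. The p-values cover the spread between 3 libraries a group. How reads shared by near-identical genes were counted was not tested.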
